A study of Mus musculus with 6 samples.

Results

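The unfolded protein response and ATF4 genes examined here are 37 genes of the stress pathways of the endoplasmic reticulum (ER), taken as a fixed list of gene symbols. All 37 were among the 15212 genes of the count table and all 37 passed the filter on low counts, which kept 13166 genes. Heat shock and DNAJ genes of the ER, Hspa5 among them, were not in the list and are given further down as a separate set.

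RNA of pulmonary group 2 innate lymphoid cells (ILC2s), lymphocytes without rearranged antigen receptors that produce type 2 cytokines, was measured by bulk RNA-Seq. There were 3 libraries from Vsir-/- mice and 3 from wild-type (WT) mice, and the comparison asked how the transcriptome of activated ILC2s differs when VISTA, the inhibitory checkpoint receptor encoded by Vsir, is missing. Mice of both genotypes were on a BALB/c background and between 5 and 8 weeks old, and each received 0.5 µg of recombinant mouse IL-33 into the nose on 3 days before isolation on day 4, so the WT cells were activated too and no unstimulated group enters this comparison. The Vsir-/- mice carry the Vsirtm1Lex allele in all tissues, so cells other than ILC2s lacked VISTA as well. ILC2s were sorted as live CD45+ lineage-negative ST2+ CD127+ cells. The labels speak both of fresh isolation and of cultured ILC2s, and neither the labels nor the study's methods say whether the libraries of a genotype came from separate mice. The p-values below therefore measure the spread between these libraries, which may be technical.

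The libraries held between 15747208 and 16638125 counts in Vsir-/- and between 15680892 and 29197999 counts in WT ILC2s. Vsir had 0, 2 and 0 counts in Vsir-/- libraries, against 109, 185 and 126 counts in WT libraries. All 12 ILC2 markers were detected, Gata3, Il1rl1 and Il7r in every library, and their summed level was 24600 to 27200 CPM in Vsir-/- and 16300 to 16700 CPM in WT libraries (CPM, library-scaled counts after TMM normalization). Most of the sum was Il5, at a mean of 15650.0 CPM in Vsir-/- and 8246 CPM in WT libraries, and Il2ra, at 5974 and 2735 CPM. Of the 12 markers, 4 rose (Il5, Il2ra, Il7r and Areg) and 5 fell in Vsir-/- libraries (Gata3, log2 fold change -0.80, Icos, Klrg1, Rora and Thy1), with a median log2 fold change of -0.12. Marker transcripts listed for other cells were low, and several of these lists, but not all, differed between the genotypes. T cell markers (3 of 7 in the table) summed to 56.4 to 68.1 CPM in Vsir-/- and 135 to 161 CPM in WT libraries, macrophage or monocyte markers (6 of 7) to 8.78 to 9.30 and 12.0 to 19.4 CPM, and epithelial markers (4 of 4) to 4.30 to 5.41 and 21.4 to 21.9 CPM. Plasma cell markers (4 of 6) summed to 14.1, 15.1 and 3.86 CPM in Vsir-/- replicates 1, 2 and 3, against 3.15 to 4.01 CPM in WT libraries, and this list is taken up again beside Xbp1, on which plasma cells depend. Other lists were also low, at 2.95 to 5.73 CPM in Vsir-/- and 1.69 to 2.74 CPM in WT libraries for mast cells or basophils (2 of 4) and 10.9 to 14.9 and 11.1 to 17.4 CPM for B cells (2 of 5). The 2 mast cell or basophil markers went opposite ways, Mcpt8 with 45, 71 and 92 counts in Vsir-/- and 10, 22 and 18 counts in WT libraries, and Cpa3 with 1, 0 and 0 counts in Vsir-/- and 17, 29 and 29 counts in WT libraries. Neutrophil, NK cell or ILC1, ILC3 and erythroid lists (1 marker each in the table) were at 3.29 CPM or less in every library. Pecam1, the 1 endothelial marker, had 48.3 to 53.8 CPM in Vsir-/- and 35.6 to 41.1 CPM in WT libraries, and eosinophil and fibroblast markers were not analysed here. None of the marker genes in the table was at 0 in all libraries, and the part of other cells in the values below was not tested.

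Proteins that enter the secretory pathway fold in the ER, and when unfolded proteins collect there, sensors in its membrane start the unfolded protein response. IRE1 (Ern1) splices the mRNA of Xbp1, ATF6 is cut in the Golgi apparatus to release a transcription factor, and PERK (Eif2ak3) phosphorylates the translation factor eIF2α, which slows protein synthesis while it lets ATF4 be translated. Kinases that sense other stresses also phosphorylate eIF2α, so ATF4 and its targets belong to the wider integrated stress response. The outputs include chaperones and disulfide isomerases that fold proteins, the machinery of ER-associated degradation (ERAD) that removes those that fail, and enzymes of amino acid metabolism. Cells that secrete much protein, such as cytokine-producing lymphocytes, use this machinery also without damage.

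As a set, the 37 genes took nearly the same share of the transcriptome in both genotypes, and single genes moved in both directions. In bulk samples, fewer cells of a type and less RNA per cell cannot be told apart. The 37 genes summed to 13450, 13580 and 13250 CPM in Vsir-/- libraries, against 12790, 13010 and 12900 CPM in WT libraries, which is 1.31% to 1.34% and 1.29% to 1.32% of the counts. Of the 37, 13 passed an adjusted p of 0.05 in edgeR's quasi-likelihood test (35.1%), beside 38.9% of all 13166 genes tested. Ern1, Nupr1, Ppp1r15a, Asns, Calr and Vcp rose in Vsir-/- ILC2s (6 of 37; 18.9% of all genes tested rose). Xbp1, Pck2, Pdia3, Sdf2l1, Edem1, Edem2 and Os9 fell (7 of 37; 20.1% of all genes tested fell). These shares of called genes are near the background of this comparison. The CPM sums of the Vsir-/- libraries all lay above those of the WT libraries, while the shares of the counts overlapped. The libraries of the 2 genotypes did not overlap for 21 of the 37 genes (56.8%), beside 49.4% of all genes tested. These 21 held all 13 called genes and 8 of the 24 others.

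Most changes were small (the value after ± is the SE wherever a log2 fold change is given). Of the 13 called genes, 11 had an absolute log2 fold change (Vsir-/- over WT) under 0.6, and Nupr1 was the 1 beyond 1. The median absolute log2 fold change was 0.195 over the 37 genes and 0.324 over all genes tested. The median log2 fold change was 0.116 over the 37 genes and -0.01 over all genes tested. For the 24 genes that did not pass, the 95% confidence intervals of the change lay within -27.8% and 51.7% for all except Atf5. The intervals of Hyou1, Syvn1 and Sec61a1 did not include 0.

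**Figure D1:**
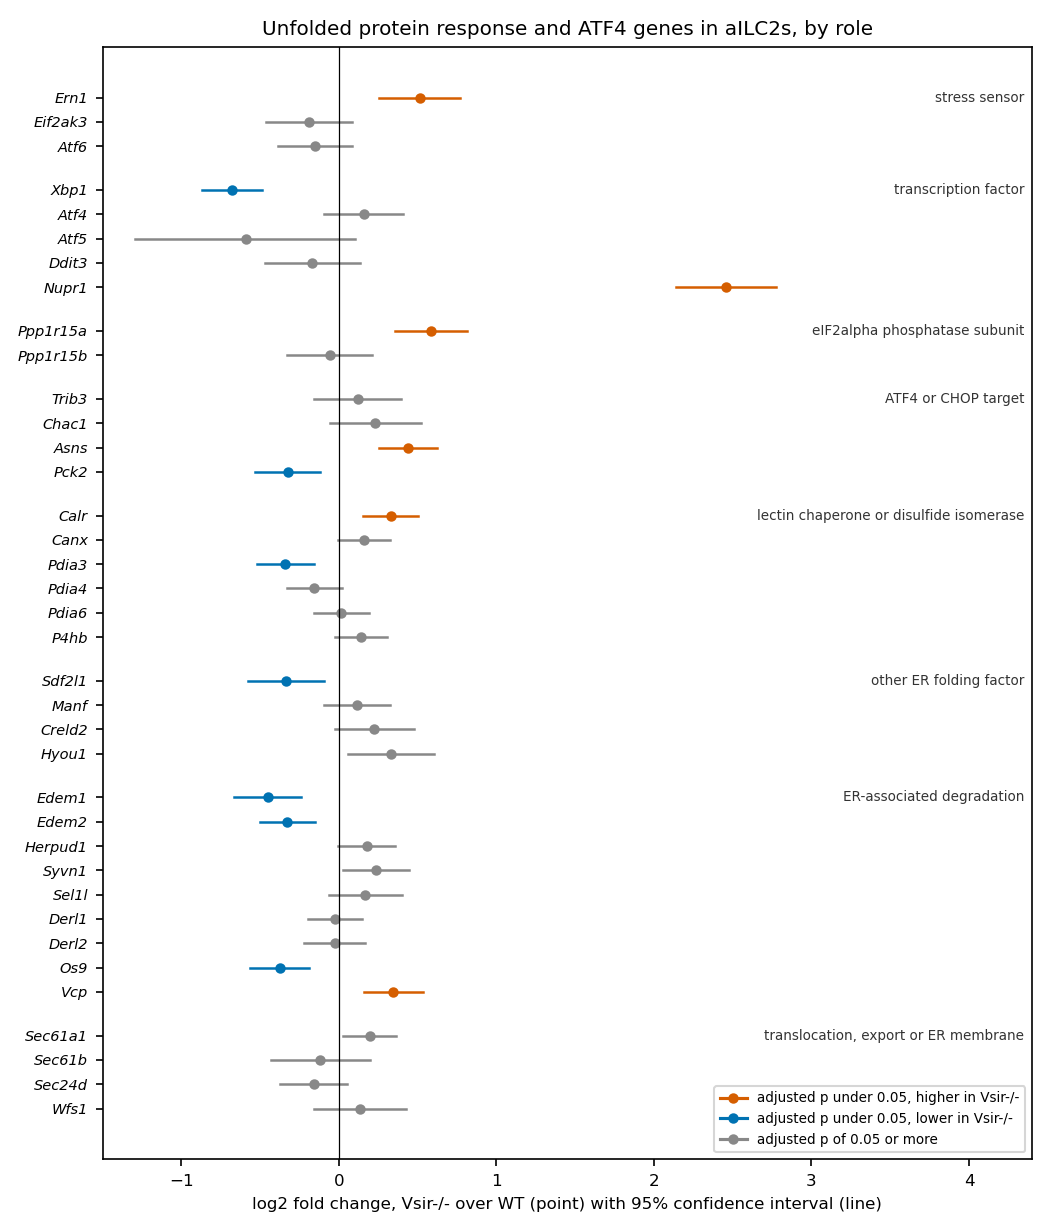
Log2 fold change (Vsir-/- over WT) of each of the 37 genes, with its 95% confidence interval as a horizontal bar, ordered by role. Nupr1 stands alone at 2.46, Xbp1 is lowest at -0.68, and both directions occur in several roles.

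How many calls held depended on which libraries entered. WT replicates 2 and 3 carry a label suffix, S0, that no other library has. With the 3 Vsir-/- libraries against WT replicate 1 alone, which is the only comparison inside 1 suffix class and assumes that the lone WT library varies like the others, 4 genes passed (Ern1, Nupr1 and Ppp1r15a higher, Xbp1 lower), and the other 9 kept their direction. With replicates 1 and 2 of each genotype, which share a label number, summed into 1 library, 6 passed (Nupr1, Ppp1r15a and Asns higher, Xbp1, Edem1 and Os9 lower). The same 6 passed with Vsir-/- replicate 3 alone against the 3 WT libraries, a comparison that makes the same assumption of its lone library and was chosen after the plasma cell transcripts had been seen. Xbp1, Nupr1 and Ppp1r15a were the 3 of 13 called genes that passed in every alternative.

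Levels were compared between genes per kilobase of exon, with all annotated exons of a gene merged over its transcripts. This length can exceed that of the transcript expressed, which makes the level of such a gene too low. Calr had the highest level, 641 CPM per kb in Vsir-/- and 510.1 CPM per kb in WT libraries, and Atf5 the lowest, 0.644 and 0.972 CPM per kb. The median over the 37 genes was 70.9 CPM per kb in Vsir-/- and 72.1 CPM per kb in WT libraries. Levels over 100 CPM per kb in both genotypes were found for 12 genes, and 5 were under 10 in both.

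**Figure D2:**
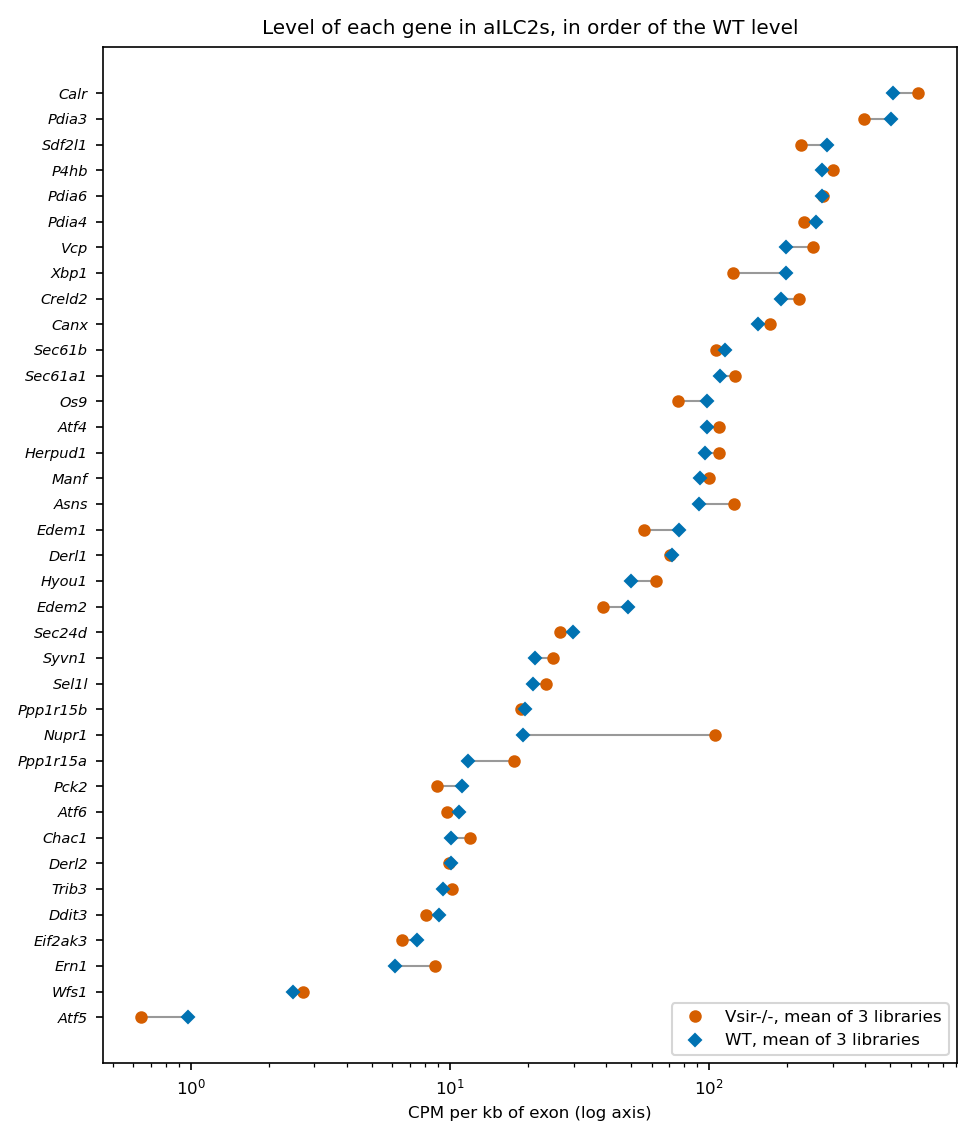
Mean level of each of the 37 genes in CPM per kb of exon on a log axis, with Vsir-/- and WT libraries as separate marks in each row. The marks of most genes lie close together, from Atf5 at 0.644 and 0.972 CPM per kb up to Calr at 641 and 510.1, and those of Nupr1 lie far apart.

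Among the 3 sensors, Ern1 rose and the transcripts of the other two did not pass the test. Ern1 (chr11:106394650-106487852, minus strand, GRCm38) encodes IRE1α, the kinase and endoribonuclease that splices Xbp1. It had 72.7, 78.4 and 63.1 CPM in Vsir-/- libraries, against 47.6, 46.4 and 56.2 CPM in WT libraries. Each Vsir-/- library lay above each WT library, with a mean of 71.4 ± 7.70 CPM in Vsir-/- and 50.1 ± 5.38 CPM in WT libraries (SD, n = 3 each). The change was 42.7% (95% confidence interval, 19.6% to 70.2%; log2 fold change 0.51 ± 0.12 (SE), adjusted p = 0.00525, edgeR). It passed without each library in turn, at adjusted p of 0.00264 to 0.0302, but not with Vsir-/- replicate 3 alone (log2 fold change 0.34; over the 16 alternatives the adjusted p ran from 0.000303 to 0.157). Eif2ak3, the gene of PERK, had 38.5, 45.4 and 34.0 CPM in Vsir-/- libraries, against 46.3, 40.7 and 47.6 CPM in WT libraries, and the groups overlapped (log2 fold change -0.19 ± 0.12, adjusted p = 0.258). Atf6 had 98.0, 86.1 and 84.8 CPM in Vsir-/- libraries, against 104, 87.6 and 107 CPM in WT libraries, which overlapped as well (log2 fold change -0.15 ± 0.11, adjusted p = 0.29).

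Of the transcription factors, Xbp1 fell by 37.5% and Nupr1 rose 5.49-fold, while Atf4 and Ddit3 did not pass the test. Xbp1 (chr11:5520659-5525893, plus strand) encodes the factor that drives chaperone and ERAD genes once its mRNA has been spliced. It had 416, 364 and 428 CPM in Vsir-/- libraries, against 660.1, 654 and 619 CPM in WT libraries. Every Vsir-/- library was below every WT library, and the change was -37.5% (95% confidence interval, -45.3% to -28.6%; log2 fold change -0.68 ± 0.09 (SE), adjusted p = 0.000162). Counts per gene do not separate the spliced from the unspliced mRNA, so the amount of active XBP1 message was not measured. In the same libraries Ern1, whose product splices Xbp1, was higher.

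Plasma cells are known for high Xbp1, and 2 Vsir-/- libraries held more immunoglobulin transcripts than the rest. Igkc had 140, 170 and 21 counts in Vsir-/- libraries, against 7, 13 and 10 counts in WT libraries. Jchain, named after its values were seen, had 44, 38 and 1 counts in Vsir-/- and 1, 1 and 0 counts in WT libraries. Sdc1, another plasma cell marker, had 1.67, 1.76 and 1.62 CPM in Vsir-/- libraries, against 1.88, 1.56 and 1.69 CPM in WT libraries. Derl3, a plasma cell marker and an ERAD gene, went the other way from Igkc and Jchain. It had 9, 12 and 14 counts in Vsir-/- libraries, against 26, 32 and 21 counts in WT libraries. Its groups did not overlap, but it did not pass (log2 fold change -0.83 ± 0.34, adjusted p = 0.0761, edgeR). Xbp1 was lower in all 3 Vsir-/- libraries, and with replicate 3 alone its log2 fold change was -0.59, within a range of -0.71 to -0.59 over the 16 alternatives (adjusted p of 1.78e-09 to 0.00707).

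Nupr1 (chr7:126623249-126630861, minus strand) encodes a small chromatin-associated stress protein known as a target of ATF4. Its level was 230.5, 245 and 320.3 CPM in Vsir-/- libraries, against 49.7, 53.5 and 41.7 CPM in WT libraries. The groups were far apart, at means of 265 ± 48.2 CPM in Vsir-/- and 48.3 ± 6.03 CPM in WT libraries (SD, n = 3 each). Expression was 5.49-fold higher in Vsir-/- libraries (95% confidence interval, 4.4 to 6.83; log2 fold change 2.46 ± 0.14 (SE), adjusted p = 6.98e-07), which ranks 206 by absolute log2 fold change among the 13166 genes tested. Over the 16 alternatives the log2 fold change was 2.32 to 2.73.

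Atf4, the central factor of the integrated stress response, had 249, 227 and 296 CPM in Vsir-/- libraries, against 252, 231 and 209 CPM in WT libraries. Vsir-/- replicate 3 was the highest and the other libraries mixed (log2 fold change 0.16 ± 0.11, adjusted p = 0.3). ATF4 is controlled largely at translation, which these counts do not measure. Ddit3, the gene of CHOP, was low, with 12.6, 13.3 and 15.8 CPM in Vsir-/- libraries, against 14.3, 17.2 and 15.2 CPM in WT libraries (log2 fold change -0.17 ± 0.14, adjusted p = 0.365). Its exons overlap those of other annotated genes, and whether strand was used in counting is not stated. Atf5, another factor translated when eIF2α is phosphorylated, was low but above a limit of detection of 3 counts, which are worth 0.104 to 0.193 CPM. It had 1.16, 1.82 and 0.871 CPM in Vsir-/- libraries, against 1.94, 2.01 and 1.86 CPM in WT libraries, and although the groups did not overlap it did not pass (change -33.6%, 95% confidence interval -59.1% to 7.42%; log2 fold change -0.59 ± 0.31, adjusted p = 0.163).

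**Figure D3:**
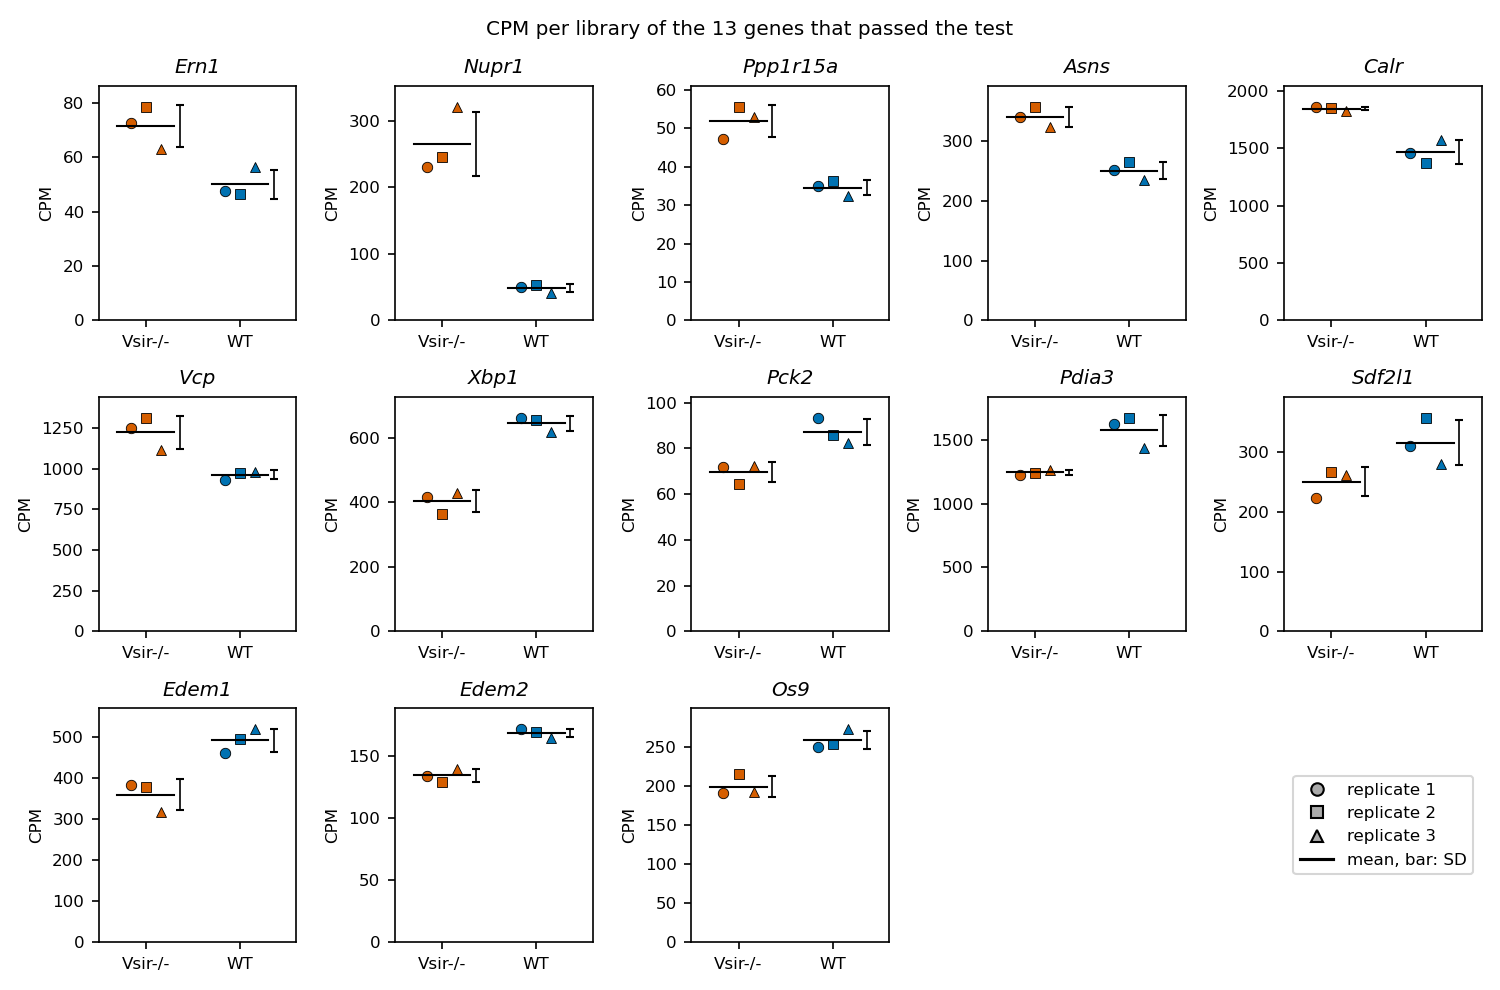
CPM of the 13 called genes in each library, 1 panel per gene, with Vsir-/- libraries on the left and WT libraries on the right of each panel and the mean and SD drawn beside the points. The points of the 2 genotypes do not overlap in any panel, and the gap is widest in proportion for Nupr1 (230.5 to 320.3 CPM against 41.7 to 53.5 CPM).

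The phosphatase that reverses eIF2α phosphorylation has 2 alternative regulatory subunits, and the inducible one rose. Ppp1r15a, which encodes the inducible subunit GADD34, had 47.3, 55.4 and 52.8 CPM in Vsir-/- libraries, against 34.9, 36.2 and 32.4 CPM in WT libraries. No libraries overlapped, and the change was 50.2% (95% confidence interval, 28.3% to 75.8%; log2 fold change 0.59 ± 0.10 (SE), adjusted p = 0.00119). Ppp1r15b, which encodes the constitutive subunit CReP, had 117, 107 and 90.5 CPM in Vsir-/- libraries, against 101, 102 and 125 CPM in WT libraries, with the groups mixed (log2 fold change -0.06 ± 0.12, adjusted p = 0.741). The ratio of Ppp1r15a to Ppp1r15b, formed in CPM after the values were seen, was 0.403, 0.517 and 0.584 in Vsir-/- libraries, against 0.347, 0.354 and 0.259 in WT libraries.

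Of the 4 metabolic and regulatory targets of ATF4 or CHOP, Asns rose, Pck2 fell and the remaining pair did not pass. Asns, the enzyme that makes asparagine, had 340.1, 356 and 323 CPM in Vsir-/- libraries, against 251, 264 and 235 CPM in WT libraries. The groups were separate by more than their spread (change 35.7%, log2 fold change 0.44 ± 0.08 (SE), adjusted p = 0.00192, edgeR). Without the S0 libraries, which leaves 1 WT library, the call was lost at a like size (log2 fold change 0.44). Pck2, the mitochondrial phosphoenolpyruvate carboxykinase, went the other way with 72, 64.6 and 72.1 CPM in Vsir-/- libraries, against 93.1, 85.8 and 82.2 CPM in WT libraries (change -20.1%; log2 fold change -0.32 ± 0.09 (SE), adjusted p = 0.0189). This call was lost without Vsir-/- replicate 2 (adjusted p = 0.0933) or without WT replicate 1 (adjusted p = 0.104), within a range of 0.0154 to 0.189 over the alternatives. Trib3, a pseudokinase that feeds back on this pathway, had 20.6, 23.8 and 20.6 CPM in Vsir-/- libraries, against 19.9, 21.9 and 18.0 CPM in WT libraries (log2 fold change 0.12 ± 0.12, adjusted p = 0.488). Chac1, an enzyme that degrades glutathione, had 19.9, 19.0 and 19.6 CPM in Vsir-/- libraries, against 16.1, 19.1 and 14.4 CPM in WT libraries (log2 fold change 0.23 ± 0.13, adjusted p = 0.191). The Vsir-/- values of Chac1 lay close together and 2 of the 3 WT values were below them.

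ATF4 binds with C/EBP partners to a composite element, the C/EBP-ATF response element (CARE), searched here on both strands as TGATGNAA. RefSeq promoters of GRCm38.p6, from 250 bases before to 50 bases after the transcription start, were given for 31 of the 37 genes. The letters were found in 6 of these 31 genes and in 4.51% of the 27025 genes with a promoter. They are shown because the set includes Nupr1, Asns and Pck2, which changed in different directions, and all 4 metabolic and regulatory targets. Each site is written on the gene's strand with 5 bases on either side, and capitals mark the fixed letters of the element or of its reverse complement. Counted from the RefSeq start, the site of Trib3 lies just after it and the others before it. Gene coordinates from the GENCODE annotation differ from these starts. By GENCODE, the sites of Nupr1 and Asns lie inside the gene and that of Trib3 before it.
Nupr1 (chr7:126625568-126625585, minus strand): ccagaTTgCATCAgacag
Asns (chr6:7693220-7693237, minus strand): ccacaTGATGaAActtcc
Pck2 (chr14:55540158-55540175, plus strand): caaagTTaCATCAgtatc
Trib3 (chr2:152344034-152344051, minus strand): caggtTTaCATCAgccgg
Chac1 (chr2:119351044-119351061, plus strand): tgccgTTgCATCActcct
Herpud1 (chr8:94386312-94386329, plus strand): gcgggTTgCATCAgcccg
Nupr1 and Asns rose and Pck2 fell. Trib3, Chac1 and Herpud1 did not pass the test, at log2 fold changes of 0.12, 0.23 and 0.18. Genes with these letters thus did not all share a direction, but Pck2 alone was lower, and its call was lost in several alternatives. A match is a description of the sequence, and binding was not measured.

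The 6 lectin chaperones and disulfide isomerases were the most abundant role, and their sum differed little while single genes shifted against each other. They summed to 6314, 6418 and 6312 CPM in Vsir-/- libraries, against 6177, 6193 and 6195 CPM in WT libraries, with all Vsir-/- sums above. As shares of the counts, without TMM factors, the genotypes overlapped. These shares were 0.624%, 0.635% and 0.626% in Vsir-/- and 0.629%, 0.612% and 0.632% in WT libraries. Calr, the soluble lectin chaperone calreticulin that also buffers ER calcium, had 1858, 1848 and 1830.0 CPM in Vsir-/- libraries, against 1464, 1369 and 1575 CPM in WT libraries. It rose by 25.6% (log2 fold change 0.33 ± 0.08 (SE), adjusted p = 0.00764), and the Vsir-/- libraries were close together. Pdia3, the isomerase ERp57 that works in complex with calreticulin and calnexin, had 1227, 1242 and 1262 CPM in Vsir-/- libraries, against 1620.0, 1667 and 1436 CPM in WT libraries. It fell (change -21.0%; log2 fold change -0.34 ± 0.08 (SE), adjusted p = 0.00758). The ratio of Calr to Pdia3, formed in CPM after the values were seen, was 1.51, 1.49 and 1.45 in Vsir-/- libraries, against 0.904, 0.821 and 1.1 in WT libraries. Neither call held with WT replicate 1 as the only WT library, with replicates 1 and 2 summed or with Vsir-/- replicate 3 alone, at log2 fold changes of 0.29 to 0.38 for Calr and -0.40 to -0.29 for Pdia3 over the 16 alternatives.

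The other genes of this role lay apart by less or not at all. Canx, the membrane-bound lectin chaperone calnexin, had 822, 793 and 806 CPM in Vsir-/- libraries, against 696, 713 and 758 CPM in WT libraries. Every Vsir-/- value was above every WT value, yet the change did not pass (change 11.7%, 95% confidence interval -0.528% to 25.4%; log2 fold change 0.16 ± 0.08, adjusted p = 0.121). P4hb, the protein disulfide isomerase itself, likewise had separate groups, with 843, 901 and 843 CPM in Vsir-/- libraries, against 785, 769.5 and 789 CPM in WT libraries (log2 fold change 0.14 ± 0.07, adjusted p = 0.157). Pdia4 (ERp72) was separate in the other direction, with 595, 555 and 526 CPM in Vsir-/- libraries, against 611, 627 and 628 CPM in WT libraries (log2 fold change -0.16 ± 0.08, adjusted p = 0.147). Pdia6 (P5) had mixed values of 969, 1079 and 1045 CPM in Vsir-/- libraries, against 1000, 1048 and 1009 CPM in WT libraries (log2 fold change 0.02 ± 0.08, adjusted p = 0.887).

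Of the other folding factors, Sdf2l1 fell. Hyou1, Manf and Creld2 did not pass in the main edgeR fit (all 6 libraries, TMM factors, filter on low counts). Sdf2l1, a cofactor of ER chaperone complexes, had 223, 266 and 261 CPM in Vsir-/- libraries, against 310.5, 356 and 280.0 CPM in WT libraries. The highest Vsir-/- library was just below the lowest WT library (change -20.7%; log2 fold change -0.34 ± 0.11 (SE), adjusted p = 0.0316). The call was lost without Vsir-/- replicate 1 (adjusted p = 0.112), without WT replicate 1 (0.0754) or without WT replicate 2 (0.125), within a range of 0.0141 to 0.215 over the alternatives. Hyou1, the nucleotide exchange factor of the ER chaperone BiP, had 499, 478 and 380.5 CPM in Vsir-/- libraries, against 324, 344 and 411 CPM in WT libraries. Vsir-/- replicate 3 fell among the WT values, and the change missed the threshold (change 25.7%, 95% confidence interval 4.24% to 51.7%; log2 fold change 0.33 ± 0.12 (SE), adjusted p = 0.0539). On all 6 libraries it passed with DESeq2 (log2 fold change 0.35, adjusted p = 0.0288), with RLE factors (adjusted p = 0.047) and with no filter on low counts (adjusted p = 0.0456). It also passed without Vsir-/- replicate 3 (log2 fold change 0.46) or without WT replicate 3 (log2 fold change 0.44), within a range of 0.08 to 0.48 over the alternatives, at adjusted p of 0.00961 to 0.724. Manf, a stress-induced protein that is partly secreted, had 308, 364 and 380.5 CPM in Vsir-/- libraries, against 328, 335 and 308 CPM in WT libraries (log2 fold change 0.12 ± 0.09, adjusted p = 0.364). Creld2, another ER stress-induced protein, had 298, 275 and 336 CPM in Vsir-/- libraries, against 259.8, 293 and 224 CPM in WT libraries (log2 fold change 0.23 ± 0.11, adjusted p = 0.142).

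Genes of this kind are known targets of ATF6 and XBP1 through the ER stress response element (ERSE), CCAAT and CCACG with 9 bases between them, searched on both strands. Of the 31 genes with a promoter, 5 held it, beside 0.137% of all genes with one. A related element, ERSE-II, ATTGG and CCACG with 1 base between them, was found in Herpud1 alone of the 31, beside 0.0444% of all genes. These sites are shown because Calr is the 1 of the 6 genes that passed the test. Capitals mark the fixed letters on the gene's strand, and each site has 5 bases on either side.
Calr (chr8:84847070-84847098, minus strand): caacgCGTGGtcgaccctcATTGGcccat
Canx (chr11:50325795-50325823, minus strand): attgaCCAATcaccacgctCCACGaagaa
Pdia6 (chr12:17266486-17266514, plus strand): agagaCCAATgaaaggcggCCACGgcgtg
Creld2 (chr15:88819515-88819543, plus strand): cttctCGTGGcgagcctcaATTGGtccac
Syvn1 (chr19:6046527-6046555, plus strand): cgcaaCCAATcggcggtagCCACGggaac
Herpud1 (chr8:94386372-94386392, plus strand): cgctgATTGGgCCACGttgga
Calr and Creld2 hold the element as its reverse complement. The log2 fold changes of these genes were 0.33 for Calr, 0.16 for Canx, 0.02 for Pdia6, 0.23 for Creld2, 0.24 for Syvn1 and 0.18 for Herpud1. The ERSE-II of Herpud1 does not overlap its CARE. For the genes without a match, only these letters in this window were looked for.

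Of the 9 ERAD genes, Edem1, Edem2 and Os9 fell, Vcp rose and 5 did not pass. Edem1, an ER protein that promotes mannose trimming of misfolded glycoproteins, had 385, 378 and 318 CPM in Vsir-/- libraries, against 462, 496 and 519.6 CPM in WT libraries. It fell (change -26.9%; log2 fold change -0.45 ± 0.10 (SE), adjusted p = 0.00373), with no overlap. Edem2, which starts mannose trimming, had 134, 129.7 and 139.9 CPM in Vsir-/- libraries, against 172, 169.5 and 165 CPM in WT libraries. The values of each genotype were close together, and it fell as well (change -20.2%; log2 fold change -0.33 ± 0.08 (SE), adjusted p = 0.00804). Os9, the lectin that reads the trimmed chains, had 191, 215 and 193 CPM in Vsir-/- libraries, against 250.5, 254 and 273 CPM in WT libraries and fell (change -22.9%; log2 fold change -0.38 ± 0.09 (SE), adjusted p = 0.00546). Vcp, the p97 ATPase that pulls substrates out of the membrane, had 1250.0, 1309 and 1112 CPM in Vsir-/- libraries, against 932, 974 and 981 CPM in WT libraries and rose (change 27.1%; log2 fold change 0.35 ± 0.08 (SE), adjusted p = 0.00809). All 4 calls were lost with WT replicate 1 as the only WT library, at log2 fold changes of -0.36 for Edem1, -0.35 for Edem2, -0.33 for Os9 and 0.39 for Vcp, and Edem2 and Vcp also with replicates 1 and 2 summed or with Vsir-/- replicate 3 alone. VCP serves many processes outside the ER too.

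The membrane core of ERAD did not pass the test. Syvn1, the ubiquitin ligase HRD1, had 128, 127 and 110.5 CPM in Vsir-/- libraries, against 95.7, 108 and 106 CPM in WT libraries, with separate groups (log2 fold change 0.24 ± 0.09, adjusted p = 0.0691). It passed without Vsir-/- replicate 3 (log2 fold change 0.32; over the alternatives 0.10 to 0.35, adjusted p of 0.0211 to 0.606). Its partner Sel1l had 219, 208 and 177 CPM in Vsir-/- libraries, against 169, 170.0 and 198 CPM in WT libraries (log2 fold change 0.17 ± 0.11, adjusted p = 0.236). Herpud1, a scaffold of the HRD1 complex, had 262, 244 and 256 CPM in Vsir-/- libraries, against 218, 239 and 217 CPM in WT libraries, also with separate groups (log2 fold change 0.18 ± 0.08, adjusted p = 0.112). Derl1 and Derl2, derlins that are channel proteins of the same complex, had overlapping groups. Derl1 had 246, 230.0 and 233 CPM in Vsir-/- libraries, against 243, 238 and 239 CPM in WT libraries (log2 fold change -0.02 ± 0.08, adjusted p = 0.835), and Derl2 had 77.2, 80.9 and 81.1 CPM in Vsir-/- libraries, against 81.6, 85.6 and 76.1 CPM in WT libraries (log2 fold change -0.03 ± 0.09, adjusted p = 0.848). Summed over the 9 genes, ERAD transcripts came to 2891, 2921 and 2620 CPM in Vsir-/- libraries, against 2624, 2734 and 2774 CPM in WT libraries, which overlap.

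None of the 4 genes of translocation, export and the ER membrane passed in the main edgeR fit or in DESeq2. In the main fit 1, Sec61a1, had an unadjusted p under 0.05. Sec61a1, the channel-forming subunit of the translocon, had 880.5, 856 and 813 CPM in Vsir-/- libraries, against 726, 731 and 769 CPM in WT libraries, with separate groups (log2 fold change 0.20 ± 0.08, adjusted p = 0.0655). It passed with no filter on low counts (log2 fold change 0.22, adjusted p = 0.0492) and without Vsir-/- replicate 3 (log2 fold change 0.24; over the alternatives 0.13 to 0.24, adjusted p of 0.0374 to 0.391). Sec61b, its small partner, had 114, 127 and 165 CPM in Vsir-/- libraries, against 151, 163 and 127 CPM in WT libraries (log2 fold change -0.12 ± 0.14, adjusted p = 0.549). Sec24d, a cargo adaptor of the COPII coat, had 177, 182 and 147 CPM in Vsir-/- libraries, against 185, 188 and 192 CPM in WT libraries, with separate groups (log2 fold change -0.16 ± 0.10, adjusted p = 0.222). Wfs1, the gene of the ER membrane protein wolframin, was low at 11.0, 10.3 and 9.59 CPM in Vsir-/- and 9.08, 9.21 and 9.90 CPM in WT libraries (log2 fold change 0.13 ± 0.13, adjusted p = 0.462).

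XBP1 also binds an unfolded protein response element (UPRE), searched here as TGACGTGG on both strands. It was found in 2 of the 31 genes and in 0.714% of all genes with a promoter. The sites are shown because Xbp1 itself fell, while Vcp rose and Sec24d did not pass.
Vcp (chr4:43000609-43000626, minus strand): ccaatTGACGTGGcgtta
Sec24d (chr3:123267465-123267482, plus strand): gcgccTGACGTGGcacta
Capitals mark the 8 letters searched, with 5 bases on either side on the gene's strand.

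Libraries of 1 genotype differed from each other as well, and these differences varied with exon length. In each library, the deviation of the 37 genes from their genotype's mean was set against exon length on a log scale. Pearson's r over the 37 genes was 0.627, 0.140 and -0.532 in Vsir-/- replicates 1, 2 and 3, and -0.205, -0.742 and 0.708 in WT replicates 1, 2 and 3. Over the 8479 genes that averaged 10 CPM or more it was 0.506, 0.141 and -0.531 in Vsir-/- and -0.237, -0.390 and 0.497 in WT libraries. Long genes were thus relatively high in Vsir-/- replicate 1 and WT replicate 3, and relatively low in Vsir-/- replicate 3 and WT replicate 2. The log2 fold change itself had an r of -0.02 with length over the 37 genes and of -0.01 over the 8479. These are descriptions over genes that share libraries, without a test. Hyou1, Sel1l and Ern1, which have long exon sequences, were lowest of the Vsir-/- libraries in replicate 3, and the short Sec61b was highest there.

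**Figure D4:**
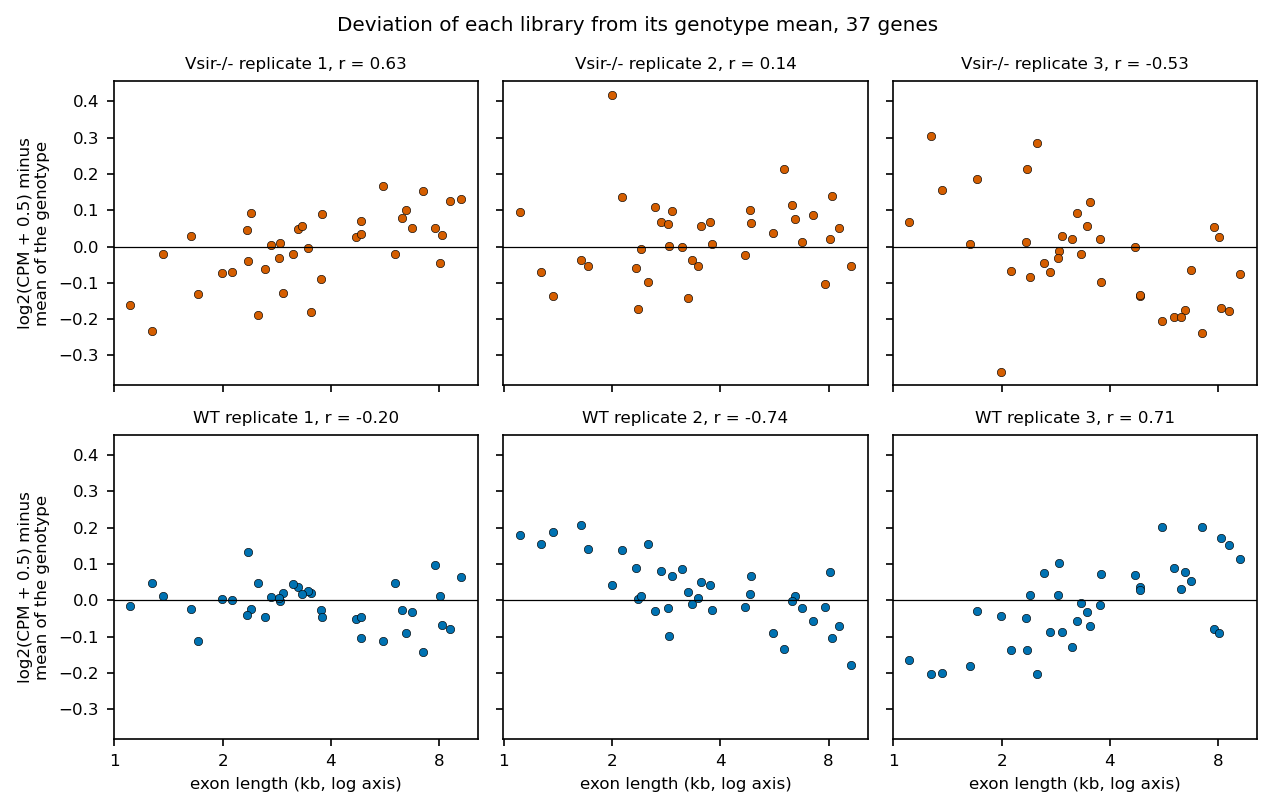
Deviation of each of the 37 genes from the mean of its genotype (log2) against exon length (log axis), 1 panel per library, with Vsir-/- libraries in the upper and WT libraries in the lower row. The points slope upward in Vsir-/- replicate 1 (r = 0.627) and WT replicate 3 (r = 0.708) and downward in Vsir-/- replicate 3 (r = -0.532) and WT replicate 2 (r = -0.742).

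Other genes of the same pathways, from lists of 155 genes of which 142 were tested, gave 44 that rose and 15 that fell (41.5%, beside 38.9% of all genes tested). Hspa5, the gene of the master ER chaperone BiP, had 1926, 2144 and 1923 CPM in Vsir-/- libraries, against 1446, 1543 and 1605 CPM in WT libraries. It rose (log2 fold change 0.38 ± 0.08 (SE), adjusted p = 0.00397) with no overlap, and the call held in every alternative. Hsp90b1, its abundant partner GRP94, fell at 1482, 1626 and 1547 CPM in Vsir-/- libraries, against 1800.0, 1880.0 and 1736 CPM in WT libraries (log2 fold change -0.22 ± 0.08, adjusted p = 0.0452), a call that was lost with DESeq2 and in 10 other alternatives at 0.05, without Vsir-/- replicate 1 or 3 and without WT replicate 1 or 2 among them (adjusted p up to 0.301). The ratio of Hspa5 to Hsp90b1, formed after the values were seen, was 1.30, 1.32 and 1.24 in Vsir-/- libraries, against 0.803, 0.821 and 0.925 in WT libraries. Dnajb9 rose (log2 fold change 0.52 ± 0.13). It did not pass without WT replicate 1 (log2 fold change 0.41) or with Vsir-/- replicate 3 alone (log2 fold change 0.53). With it, 3 of the 9 heat shock and DNAJ genes of the ER were called (33.3%, beside 38.9% of all genes tested). These chaperones thus moved in both directions, as Calr and Pdia3 did.

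Of 26 further genes of the integrated stress response, 13 rose and 2 fell (57.7% called, beside 38.9% of all genes tested). Their median log2 fold change was 0.28, beside -0.01 over all genes tested. The pathway lists were chosen with earlier results of these data known. Atf3, a factor induced downstream of ATF4, had 13.9, 14.2 and 13.01 CPM in Vsir-/- libraries, against 2.94, 1.91 and 1.98 CPM in WT libraries, with no overlap (log2 fold change 2.61 ± 0.19, adjusted p = 3.09e-06). Cebpb, a dimer partner of ATF4, rose (log2 fold change 0.83 ± 0.13), and Slc3a2, a subunit of amino acid transporters, fell (log2 fold change -0.56 ± 0.08). Atf3 is also an immediate early gene. In a list of 17 tested immediate early genes, 9 rose and 1 fell (58.8% called, beside 38.9% of all genes tested). The median log2 fold change of this list was 0.95. Nfkbia (log2 fold change 2.60 ± 0.11), Jun (log2 fold change 2.31 ± 0.14) and Junb (log2 fold change 1.77 ± 0.10) led by p. The part of immediate early genes in the rise of Nupr1, Ppp1r15a and Atf3 was not tested.

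Among redox and folding enzymes, 4 of 20 rose and 3 fell (35.0% called, beside 38.9% of all genes tested). Ero1l, the oxidase that recharges protein disulfide isomerases, was more abundant than any of the 37 genes in CPM, with 5392, 5087 and 4399 CPM in Vsir-/- libraries, against 2718, 2726 and 2981 CPM in WT libraries (log2 fold change 0.82 ± 0.09, adjusted p = 6.77e-05). Fkbp11, a prolyl isomerase, rose (log2 fold change 1.24 ± 0.23), and Prdx4, a peroxiredoxin of the ER, fell (log2 fold change -0.54 ± 0.12). Fkbp11 did not pass without the S0 libraries (log2 fold change 0.92), nor Prdx4 with Vsir-/- replicate 3 alone (log2 fold change -0.39). Of 20 other ERAD genes, 2 rose and 1 fell, a share of 15%, beside 38.9% of all genes tested. Edem3 (log2 fold change 0.66 ± 0.25), Man1b1 (log2 fold change -0.14 ± 0.12) and the lectin Erlec1 (log2 fold change -0.28 ± 0.16), which act on or read sugar chains like Edem1, Edem2 and Os9, did not pass. Ngly1, the cytosolic enzyme that strips sugar chains from ERAD substrates, was the 1 that fell (log2 fold change -0.75 ± 0.10). Of 26 genes of the translocon, signal peptidase and oligosaccharyltransferase, 10 rose and 4 fell (53.8% called, beside 38.9% of all genes tested). Srpr (log2 fold change 0.66 ± 0.08) and Sec61a2 (log2 fold change 0.83 ± 0.12) were higher. Stt3b, a catalytic subunit of the oligosaccharyltransferase, was lower (log2 fold change -0.93 ± 0.12). Stt3a, the alternative catalytic subunit, was higher (log2 fold change 0.47 ± 0.10). Of 19 COPII and export genes, 4 rose and 1 fell (26.3% called, beside 38.9% of all genes tested). Sec23b (log2 fold change 0.30 ± 0.08) and Sec24a (log2 fold change 0.47 ± 0.12) rose, and the cargo receptor Surf4 fell (log2 fold change -0.79 ± 0.08). The calls of Sec23b and Sec24a were lost without WT replicate 1 (log2 fold changes 0.30 and 0.42). They were also lost with replicates 1 and 2 summed (0.29 and 0.41), without the S0 libraries (0.31 and 0.57) and with Vsir-/- replicate 3 alone (0.25 and 0.36). Sec23b did not pass with the replicate block either.

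IRE1 also cuts other mRNAs of the ER, and 6 known substrates of this decay were tested. None rose, 2 fell and 4 did not pass (33.3% called, beside 38.9% of all genes tested), with a median log2 fold change of -0.41, beside -0.01 over all genes. Bloc1s1, the best known of them, had 14.97, 17.1 and 20.2 CPM in Vsir-/- libraries, against 32.6, 34.9 and 25.9 CPM in WT libraries (log2 fold change -0.84 ± 0.15, adjusted p = 0.00147). Tapbp, the gene of tapasin, had 194, 220.4 and 180.1 CPM in Vsir-/- libraries, against 291, 302 and 308 CPM in WT libraries (log2 fold change -0.60 ± 0.09, adjusted p = 0.000521). Bloc1s1 did not pass with Vsir-/- replicate 3 alone (log2 fold change -0.62). Transcript decay was not measured, and neither was IRE1 activity.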

How the data were processed

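Bulk RNA-Seq libraries of activated ILC2s (3 Vsir-/-, 3 WT) were made from 10 pg of RNA each with a SMARTer Ultra Low kit and sequenced on a NextSeq system. The values deposited by the authors are estimated counts for each gene. The submitters' processing notes name STAR 2.7.8, Partek 10.0, the mm10 build and DESeq2, the last without a version or a role. The annotation, any filter and the use of strand are not given in the sources used here. Between 60.83% and 69.48% of a library's values lay within 0.01 of a whole number.

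The counts were rounded to whole numbers, and 19 genes at 0 in all libraries and others under the limits of filterByExpr (min.count 10, min.total.count 15) were left out. TMM factors lay between 0.9892 and 1.021, and CPM is the count divided by library size times factor. Genotypes were compared with the quasi-likelihood F test of edgeR 4.0.16 (R 4.3.3, limma 3.58.1) without covariates, with Benjamini-Hochberg adjustment over 13166 genes at 0.05. Standard errors are the unshrunken log2 coefficient over the root of F, and 95% confidence intervals use the t distribution. Limits set by 3 counts cover counting error only. Alternatives were DESeq2 1.42.0, RLE and upper quartile factors, no filter, a mean of at least 5 CPM, a replicate block, replicates 1 and 2 summed, libraries without the suffix S0, each library left out, and a threshold of 0.01. Vsir-/- replicate 3 alone was added after the data were seen.

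Exon lengths and overlaps came from GENCODE M21 on GRCm38 (mm10), promoters from RefSeq. Exons of 14 of the 37 genes overlap another gene's. Between libraries of a genotype r was 0.9821 to 0.9921. Replicates 1 and 2, which share a label number, were the most alike in both genotypes (r = 0.9902 in Vsir-/- and 0.9921 in WT libraries). Chi-square per degree of freedom was 11.3 and 9.71 for these pairs and up to 25.2 for the others. That is more than counting noise alone, so none was counted as a copy. These values cannot tell separate mice from repeated preparations of 1 sample. Deviations of equally numbered libraries correlated at -0.0956, 0.197 and -0.475, so the numbers were not used as pairs. The methods were tested on simulated data. The 37 genes, the pathway lists and the marker lists were chosen with earlier results of these data known. All 37 genes were named, and of each list up to 3 genes by smallest p with Hspa5, Vsir and the most abundant marker of a list whose level moves with genotype. Sdc1, Jchain, Derl3, Cpa3, Edem3, Man1b1, Erlec1, Stt3a and the ILC2 markers other than Il5 were named outside this rule, after their values were seen.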

Additional observations from a re-analysis of the deposited data

How the results depend on the processing

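Against 5124 genes called (2484 higher and 2640 lower in Vsir-/-), the libraries whose suffix is not S0 gave 2480 (1206 higher, 1274 lower), a threshold of 0.01 gave 3327 (1575, 1752), and Vsir-/- replicate 3 alone, added after the data were seen, gave 3180 (1537, 1643). Of the 37 genes, 13 were called (6 higher, 7 lower), against 6 (3 higher, 3 lower) with replicates 1 and 2 summed, 4 (3 higher, 1 lower) without the S0 libraries and 6 (3 higher, 3 lower) with Vsir-/- replicate 3 alone. Of the genes of the pathway lists, 59 were called (44 higher, 15 lower), against 39 (28 higher) summed, 32 (22 higher) without the S0 libraries, 34 (27 higher, 7 lower) with Vsir-/- replicate 3 alone, and 29 higher at 0.01. Fewer libraries entered all of these fits but the stricter threshold. Leaving out each library in turn gave 3922 to 4950 genes, 11 to 16 of the 37 (6 to 9 higher, 5 to 7 lower) and 41 to 65 list genes (29 to 48 higher, 12 to 17 lower); the 29 came without WT replicate 1. DESeq2 called 5109 genes and 14 of the 37.

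Over 16 alternatives and 591 values of the 37 genes, 551 kept their side of the threshold, 32 lost and 8 gained the call, and no called gene changed sign. Of 21 genes named from the pathway lists by smallest p, 14 kept their call in all alternatives. Of their 336 values, 27 lost the call without a change of sign. Atf5 gave no value with a mean of at least 5 CPM. The replicate block, whose numbers do not pair the libraries, gave 4094 genes, 11 of the 37 (Pck2, adjusted p = 0.0573, and Sdf2l1, 0.0546, were lost) and 45 list genes. Atf5 had the fewest counts of the 37 genes, 14 to 58 a library, which limits what its values can show.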
